A study of Mus musculus with 6 samples.

Results

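The genes described here encode the nuclear subunits of the mitochondrial respiratory chain and of ATP synthase, with the complex I assembly factors that carry the same prefix. Members were picked by gene symbol. A probe set was taken where its annotation gave 1 gene symbol that begins with Nduf, Uqcr or Atp5, or with Cox and a digit from 4 to 8, or that is Sdha, Sdhb, Sdhc or Sdhd. This gave 179 of the 45037 probe sets tested and 90 of the 18193 genes on the array. Of the 90 genes, 36 are named for complex I, 4 for complex II, 8 for complex III, 17 for complex IV and 17 for complex V, and 8 are assembly factors of complex I. None of the 13 subunits encoded by mitochondrial DNA was named by the annotation, so the comparison covers nuclear genes only.

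The data were 3 arrays of dedifferentiated fat (DFAT) cells and 3 arrays of mature adipocytes (AC), all of mouse RNA on the Affymetrix Mouse Genome array. DFAT cells are the proliferating line that ceiling culture, in which floating fat cells attach under the top of a filled flask, gave from mature adipocytes of GFP transgenic mice. AC were primary fat cells taken from fat tissue without that culture. Neither the strain, the age nor the fat depot of the mice is given in the sources used here, a GFP transgene is stated for the DFAT donors only, and no source says whether replicates were independent cultures or animals, so p-values reflect the scatter of the arrays at hand, which may be technical.

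Respiratory chain complexes pass electrons from NADH and succinate through coenzyme Q and cytochrome c to oxygen, and complexes I, III and IV pump protons across the inner membrane as they do so. Complex V, the ATP synthase, lets the protons flow back and makes ATP. Fat cells also feed this chain with electrons from fatty acid oxidation, and several complex IV subunits exist as a widely expressed form and a form known from heart, muscle or brown fat.

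Values are log2 RMA values as deposited, so a difference of 1 is a factor of 2 in signal, and every difference is DFAT minus AC. Each gene is shown by its brightest probe set over the 6 arrays. The array medians lay between 4.92 and 5.11. The DFAT arrays correlated at 0.995 to 0.996 with each other, whereas AC replicate 1 correlated at 0.969 and 0.971 with AC replicates 2 and 3, a pair that reached 0.992. The labels were checked against markers. The 11 white adipocyte markers averaged 5.87 to 5.94 on the DFAT arrays and 12.99 to 13.19 on the AC arrays, and all 11 were lower in DFAT cells, 8 of them at background level there, among them Adipoq, Lep, Cd36 and Car3. Markers of other cells moved with the same comparison. The 10 endothelial markers averaged 4.48 to 4.49 in DFAT cells, against 9.96, 8.01 and 7.84 on AC replicates 1, 2 and 3. The 10 macrophage markers averaged 4.50 to 4.75 in DFAT cells, against 7.20, 8.85 and 8.95 on AC replicates 1, 2 and 3. For 10 markers of epithelium and mammary gland the means were 4.38 to 4.58 in DFAT cells and 8.70 to 9.38 in AC. Of these 3 lists, DFAT cells had 8, 8 and 9 genes at background level and AC had 0, 0 and 2, and their part in the results below was not tested. In RNA of whole samples, fewer cells of a type and less RNA per cell cannot be told apart.

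Most of the 90 genes were lower in DFAT cells. With limma and a threshold of 0.05 on the adjusted p, 57 were lower, 4 were higher and 29 did not pass, where 23.8% of all genes on the array were lower and 22.6% were higher. The median difference was -0.59, a signal 33.5% smaller in DFAT cells, against -0.10 for all genes. Among the 7676 genes above background level on all 6 arrays, 24.2% were lower and 34.7% were higher, with a median of 0.15. Background level stands for a probe set at or under the 95th percentile of 95 genes restricted mostly to sense organs and sperm, which was 5.74 to 5.94 on the DFAT arrays and 6.06 to 6.41 on the AC arrays. In 65 of the 90 genes every DFAT array lay below every AC array, and in 8 every DFAT array lay above, with 17 overlapping. The same was found for 32.5% and 27.5% of all genes. By the measured values, a fall of at least 2-fold was seen in 20 genes and one of at least 4-fold in 3, Cox8b, Cox7a1 and Ndufb3. Of all 18193 genes, 2508 and 1210 were called lower with such falls. Of the 7676 genes above background level on all 6 arrays, 969 and 320 were. Counted over the 179 probe sets, 96 were lower and 9 higher, where 18.1% and 20.3% of all probe sets were. Of 36 called genes with several probe sets, 18 had all the others called the same. In 18 some other probe set was not called, and 0 had a probe set called the opposite way. Without AC replicate 1, 66 genes were lower and 7 higher, with 15 probe sets higher, and 2 genes were higher without DFAT replicate 1, DFAT replicate 2 or AC replicate 2. Of the 3 AC arrays, that of AC replicate 1 was the lowest in 58 of the 90 genes and in 8728 of all 18193 genes. Among genes above background level on all 6 arrays, it was the lowest in 56 of 81 here and in 4620 of all 7676. Above background level on all 6 arrays were 81 of the 90 genes, and 4 were at it in both groups, namely Cox4i2, Cox6b2, Cox7b2 and Ndufb4.

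**Figure D1:**
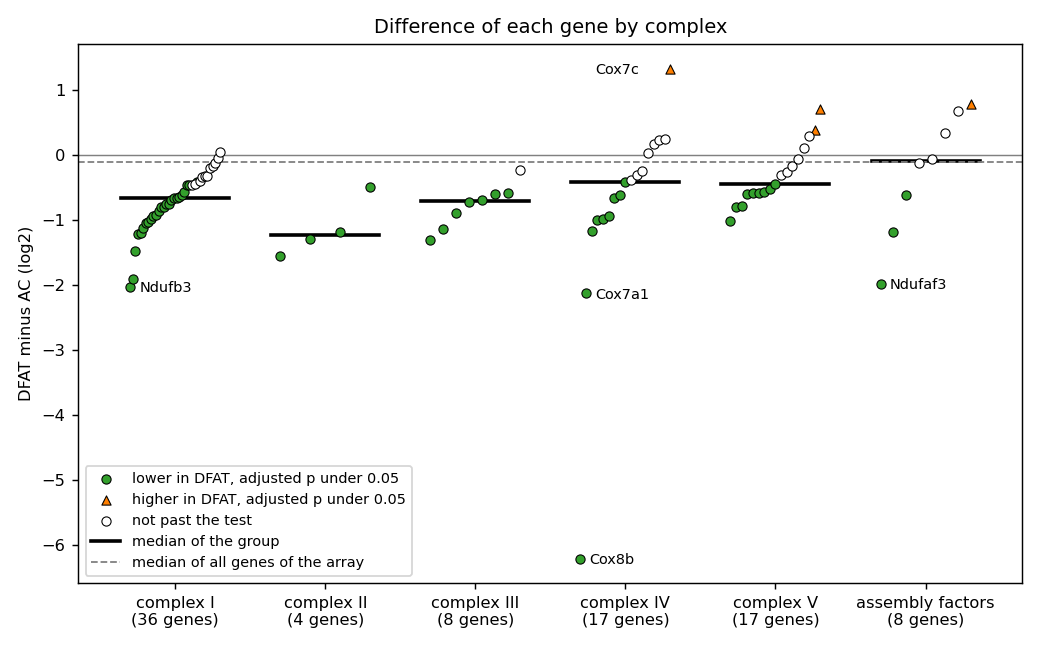
Each point is 1 of the 90 genes, placed by its difference DFAT minus AC on the log2 scale (vertical axis) and by the complex it is named for (horizontal axis), with filled points past the test and black bars at the group medians. The medians of complexes I to V lie between -1.23 and -0.41 and that of the assembly factors at -0.09, next to -0.10 for all genes of the array; with arrays centred on the hybridization controls the medians of complexes IV and V and of the assembly factors turn positive.

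The medians differed from complex to complex, and no test between complexes was made. All 4 complex II genes and 7 of the 8 complex III genes were lower, with medians of -1.23 and -0.71. With the hybridization controls these medians were -0.77 and -0.24, and 2 genes of each complex were lower. In complex I, 25 of 36 were lower and 0 higher by limma, or 29 and 0 at an unadjusted p under 0.05, and the median was -0.66, or -0.20, with 4 genes lower, under the hybridization control centring. These 36 go by gene name and include Ndufa4, now known as a subunit of complex IV, and its paralogue Ndufa4l2, both lower. In complex IV 9 of 17 were lower and 1 higher (median -0.41, but 0.051 with arrays centred on the hybridization controls). In complex V 9 of 17 were lower and 2 higher (median -0.44, but 0.026 with that centring). The assembly factors had 3 lower and 1 higher of 8, with a median of -0.09 that was 0.038 with arrays centred on their medians, 0.37 with the hybridization controls and 0.041 without AC replicate 3.

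Within complex I, of the 6 measured core subunits, most of which carry the electrons, 3 were lower and 3 did not pass. Ndufs1, the largest core subunit, which holds several iron-sulfur clusters, had 9.31, 9.45 and 9.36 in DFAT cells, against 10.44, 10.67 and 10.60 in AC. It fell by 1.20 ± 0.13 (SE, n = 3 each; adjusted p = 0.000184 from limma). Ndufs3 fell by 1.12 and Ndufv1, which binds NADH, by 0.76, while the iron-sulfur subunits Ndufs7 and Ndufs8 and the flavoprotein partner Ndufv2 had differences of -0.19, -0.12 and -0.33 that did not pass the test. Without AC replicate 1, Ndufv2 passed (-0.38, adjusted p = 0.0232 from limma). All 6 probe sets of Ndufs8 lay between -0.12 and 0.02. The other probe set of Ndufs7 gave -0.45 and passed.

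The largest changes in complex I were in accessory subunits. Ndufb3, of the distal membrane arm, had 9.43, 9.40 and 9.25 in DFAT cells, against 11.14, 11.39 and 11.61 in AC, a difference of -2.02 (95% confidence interval -2.39 to -1.66, adjusted p = 2.82e-05 from limma). Ndufv3, a small subunit of the NADH-oxidizing module, had 10.41, 10.50 and 10.51 in DFAT cells, against 12.56, 12.28 and 12.30 in AC, a difference of -1.90 (-2.22 to -1.59, adjusted p = 1.74e-05 from limma). Ndufs5, an accessory subunit of the membrane arm, had 10.35, 10.36 and 10.29 in DFAT cells, against 11.76, 11.74 and 11.90 in AC, a difference of -1.47 (-1.75 to -1.18, adjusted p = 4.67e-05 from limma). In each of these the 2 groups lay far apart relative to the spread within them. Of the 11 genes of the Ndufb group, 7 were lower, and of the 19 other accessory genes, Ndufa4 and Ndufa4l2 among them, 15 were. Ndufab1, the mitochondrial acyl carrier protein that also serves fatty acid synthesis, fell by 1.04. Its 5 probe sets ran from -1.04 to 0.34, and 3 did not pass. Ndufa12 was close to level, at 12.19 ± 0.0345 in DFAT cells and 12.23 ± 0.0193 in AC (SD, n = 3 each), with an interval of -0.32 to 0.23 for the difference. Ndufb4 was measured by a probe set at background level in both groups, which says nothing of its change.

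Ndufa4 carries a complex I name but is now known as a subunit of cytochrome c oxidase. Its values were 12.42, 12.35 and 12.38 in DFAT cells, against 12.76, 12.74 and 12.85 in AC, and it fell by 0.40 (adjusted p = 0.0308 from limma). The call was lost without any 1 of the DFAT arrays or without AC replicate 3 (adjusted p 0.0655 to 0.118 from limma), and with the hybridization controls the difference was 0.059. Its paralogue Ndufa4l2, known as a gene induced by low oxygen, had 5.99, 6.18 and 5.68 in DFAT cells and 6.83, 6.41 and 6.53 in AC, and fell by 0.64 near the background level (adjusted p = 0.0243 from limma). That call was lost without DFAT replicate 1 or 3 or without AC replicate 3 (adjusted p 0.0502 to 0.0993 from limma).

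Complex II, succinate dehydrogenase, links the citric acid cycle to the chain and has no subunit in mitochondrial DNA. The catalytic flavoprotein Sdha had 10.51, 10.63 and 10.56 in DFAT cells, against 12.09, 12.13 and 12.16 in AC. The difference was -1.55 (-1.83 to -1.27, adjusted p = 2.88e-05 from limma), or 2.94-fold, and another bright probe set gave -1.48. The iron-sulfur subunit Sdhb had 10.69, 10.78 and 10.75 in DFAT cells, against 12.05, 11.94 and 12.08 in AC, a difference of -1.28 (-1.57 to -0.997, adjusted p = 9.23e-05 from limma). Both groups of values were tight and did not overlap. Sdhc, a membrane anchor, had 9.35, 9.56 and 9.37 in DFAT cells, against 10.18, 10.84 and 10.80 in AC, where the array of AC replicate 1 was the lowest. It fell by 1.18 ± 0.20 (SE; adjusted p = 0.00198 from limma). The other anchor, Sdhd, changed less, with 10.41, 10.51 and 10.52 in DFAT cells and 10.83, 10.99 and 11.09 in AC, and fell by 0.49 (adjusted p = 0.0200 from limma). Its call was lost without any 1 of the DFAT arrays or without AC replicate 3, at an adjusted p of 0.0513 to 0.0793 from limma. The other probe set of Sdhd gave -0.28 and did not pass.

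Complex III passes electrons from coenzyme Q to cytochrome c. Of its core proteins, Uqcrc2 had 10.30, 10.31 and 10.27 in DFAT cells, against 11.68, 11.49 and 11.62 in AC, a difference of -1.31 (-1.59 to -1.02, adjusted p = 9.1e-05 from limma). Its partner Uqcrc1 had 11.24, 11.35 and 11.33 in DFAT cells and 11.46, 11.42 and 11.71 in AC. That difference, -0.22 (-0.54 to 0.09), was the exception of the complex and did not pass. The small subunits Uqcr10 and Uqcrq fell by 1.14 and 0.88, although Uqcrq lost its call as the mean of its 4 probe sets, of which the other 3 were at background level in both groups (-0.28, adjusted p = 0.0929 from limma). Of the 3 probe sets of Uqcr10, which ran from -1.14 to -0.24, 1 did not pass. The Rieske iron-sulfur protein Uqcrfs1 fell by 0.72, Uqcrb by 0.69, the hinge protein Uqcrh by 0.59 and Uqcr11 by 0.58. The call of Uqcrh was lost without DFAT replicate 3 (adjusted p = 0.0567 from limma).

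**Figure D2:**
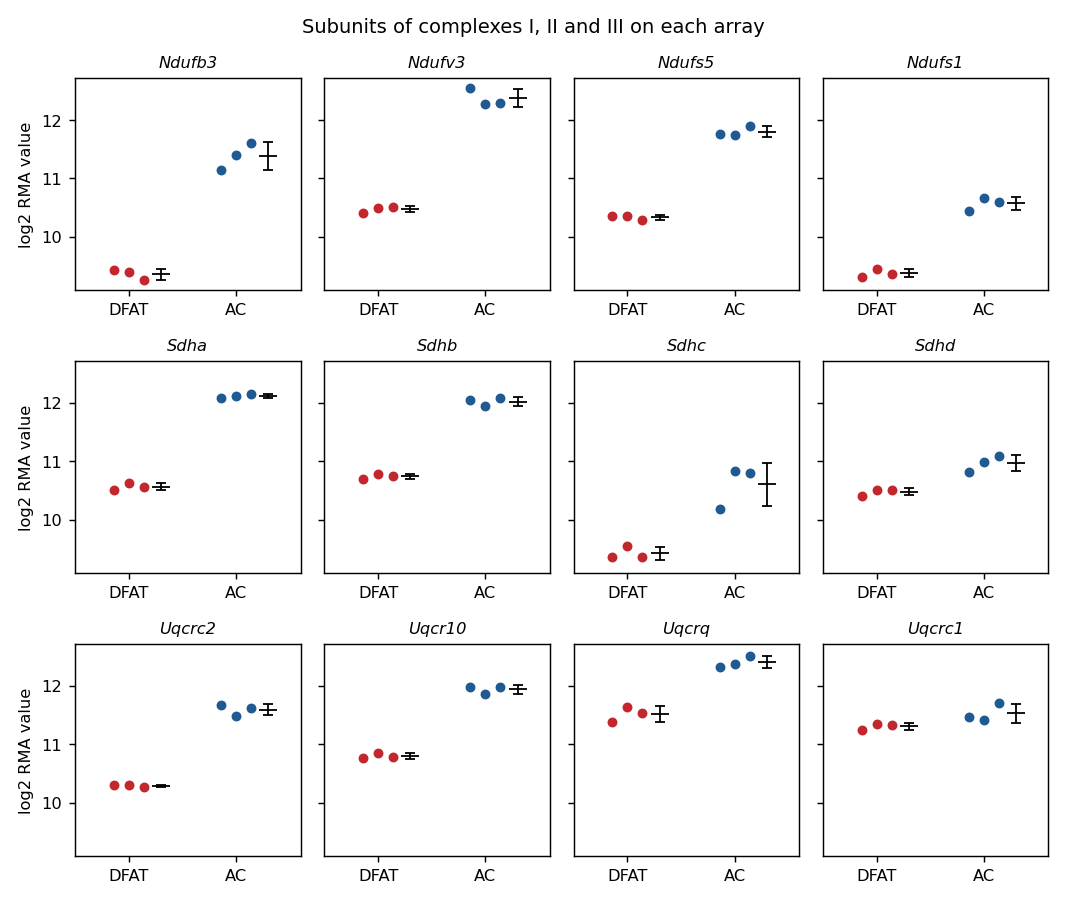
Log2 RMA values (vertical axis, shared) of 12 subunits of complexes I, II and III on each array, with DFAT at the left and AC at the right of each panel, points for arrays and bars for mean ± SD of 3. Sdha runs from 10.51 to 10.63 in DFAT and from 12.09 to 12.16 in AC, while Uqcrc1 differs by -0.22 only.

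Complex IV, cytochrome c oxidase, held the largest change of all 90 genes. Cox8b, the form of subunit VIII known from heart, muscle and brown fat, had 4.56, 4.24 and 4.50 in DFAT cells, against 11.05, 10.38 and 10.50 in AC (adjusted p = 2.92e-07 from limma). The DFAT values were at background level, so the measured difference of -6.21 is bounded only as at least 27.7-fold lower, from the AC mean against the background level of the DFAT arrays. Its widely expressed counterpart Cox8a had 11.67, 11.87 and 11.87 in DFAT cells, against 12.78, 12.72 and 12.83 in AC, and fell by 0.97 (adjusted p = 0.000551 from limma). Cox7a1, the heart and muscle form of subunit VIIa, had 4.65, 4.82 and 4.72 in DFAT cells, at background level, against 6.06, 7.13 and 7.37 in AC (difference -2.12, adjusted p = 0.000997 from limma). On AC replicate 1 Cox7a1 was also under the background level of 6.21, and the bound is at least 2.0-fold lower. Its counterpart Cox7a2 had 12.73, 12.73 and 12.74 in DFAT cells and 12.89, 13.09 and 13.14 in AC, a difference of -0.31 (-0.61 to -0.0045) that did not pass. Without AC replicate 1 that difference was -0.38 and passed (adjusted p = 0.0218 from limma). The other probe set of Cox7a2 gave -0.55 and passed, and the mean of both was -0.43 (adjusted p = 0.01005 from limma).

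Markers of the cells that share these isoforms were read beside them. Of the 10 skeletal muscle markers, DFAT cells had 9 at background level and AC had 9, the exception in both being Acta1, and the list averaged 4.51 to 4.64 in DFAT cells and 4.82 to 5.09 in AC, with 3 lower. Its part in the result was not tested. The 7 brown or beige adipocyte markers averaged 3.34 to 3.66 in DFAT cells and 4.84 to 5.29 in AC, with 4 lower and 0 higher. Ppargc1a and Otop1, 2 of those 4, were at background level in both groups, so their calls give no fold. DFAT cells had all 7 at background level and AC had 6, among them Ucp1, the uncoupling protein of brown fat. Cidea, a lipid droplet protein, was the exception, at 3.91 in DFAT cells and 7.72 in AC on average, at least 3.65-fold lower in DFAT cells.

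The promoters of these isoform pairs, picked after their changes were seen, are shown, and no link between promoter and change was tested. They are the 150 bases before the start of transcription, credited to RefSeq on GRCm38.p6, in which capitals mark any match to 1 of 5 motifs searched on both strands. Those were NRF1 as GCGCATGCG, the ETS site of GABP as CCGGAAG, YY1 as AAGATGGC, SP1 as GGGCGG and ERR as TCAAGGTCA. Cox8b (chr7:140900447-140900596, minus strand), Cox8a (chr19:7217617-7217766, minus strand), Cox7a1 (chr7:30184021-30184170, plus strand) and Cox7a2 (chr9:79759854-79760003, minus strand) read as follows.
Cox8b: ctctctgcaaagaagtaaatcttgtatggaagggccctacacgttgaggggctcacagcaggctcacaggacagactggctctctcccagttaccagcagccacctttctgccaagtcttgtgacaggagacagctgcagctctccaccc
Cox8a: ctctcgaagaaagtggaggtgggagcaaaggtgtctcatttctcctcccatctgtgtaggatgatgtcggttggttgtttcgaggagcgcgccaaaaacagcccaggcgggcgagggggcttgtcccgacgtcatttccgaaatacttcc
Cox7a1: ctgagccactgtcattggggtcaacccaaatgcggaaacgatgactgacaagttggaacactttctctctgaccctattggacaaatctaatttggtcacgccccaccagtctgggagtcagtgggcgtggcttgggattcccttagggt
Cox7a2: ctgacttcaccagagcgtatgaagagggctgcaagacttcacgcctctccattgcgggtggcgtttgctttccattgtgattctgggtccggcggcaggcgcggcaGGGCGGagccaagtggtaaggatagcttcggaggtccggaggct
In windows of 300 bases, from 250 before to 50 after the start, Cox8b held 2 CG dinucleotides and Cox7a1 held 7, against 19 for Cox8a and 20 for Cox7a2. The median over all 32851 windows was 7, and over the 79 windows of the 74 genes matched here it was 20. Cox8b and Cox7a1 were among 22 of the 74 genes that held none of the 5 motifs, as were Sdha, Ndufb3, Cox5b and Atp5g1, while Cox8a held an ETS match, outside the stretch shown, and Cox7a2 an SP1 match. Cox6b2 and Cox7b2, other tissue forms of complex IV, held 10 CG dinucleotides and an SP1 match each. A match is a run of letters and not a site shown to be bound.

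The other tissue isoforms of complex IV gave no fold or did not pass. Cox6b2, a testis form, was at background level in both groups, with 4.33, 3.97 and 4.21 in DFAT cells and 5.74, 5.34 and 4.94 in AC, so its call of lower gives no fold. Cox6a2, the heart and muscle form of subunit VIa, was at background level in AC, and the lung form Cox4i2 and the testis form Cox7b2 were so in both groups, and none of them passed. Cox8c, another testis form, had a difference of -0.24 that did not pass. Several widely expressed subunits were lower in DFAT cells. Cox6b1 fell by 1.003, Cox5b by 0.94, Cox4i1 by 0.65 and Cox6a1 by 0.61, all above background level on every array. Cox5a, a subunit on the matrix side, had 12.62, 12.55 and 12.64 in DFAT cells and 12.12, 12.41 and 12.52 in AC, a difference of 0.26 that did not pass and was -0.31 with the reference genes. Cox7a2l, which joins complexes III and IV into supercomplexes, had a difference of 0.23 that did not pass, but was 0.33 and passed without AC replicate 1 (adjusted p = 0.0381 from limma) and -0.34 with the reference genes. As the mean of its 3 probe sets Cox7a2l was at 0.39 and passed (adjusted p = 0.0332 from limma). The 1 gene of complex IV that was higher, Cox7c, had 6.57, 6.45 and 6.12 in DFAT cells against 4.51, 5.17 and 5.44 in AC (difference 1.34, adjusted p = 0.00357 from limma). Both of its probe sets were dim, and with AC at background level the bound was at least 1.11-fold higher.

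**Figure D3:**
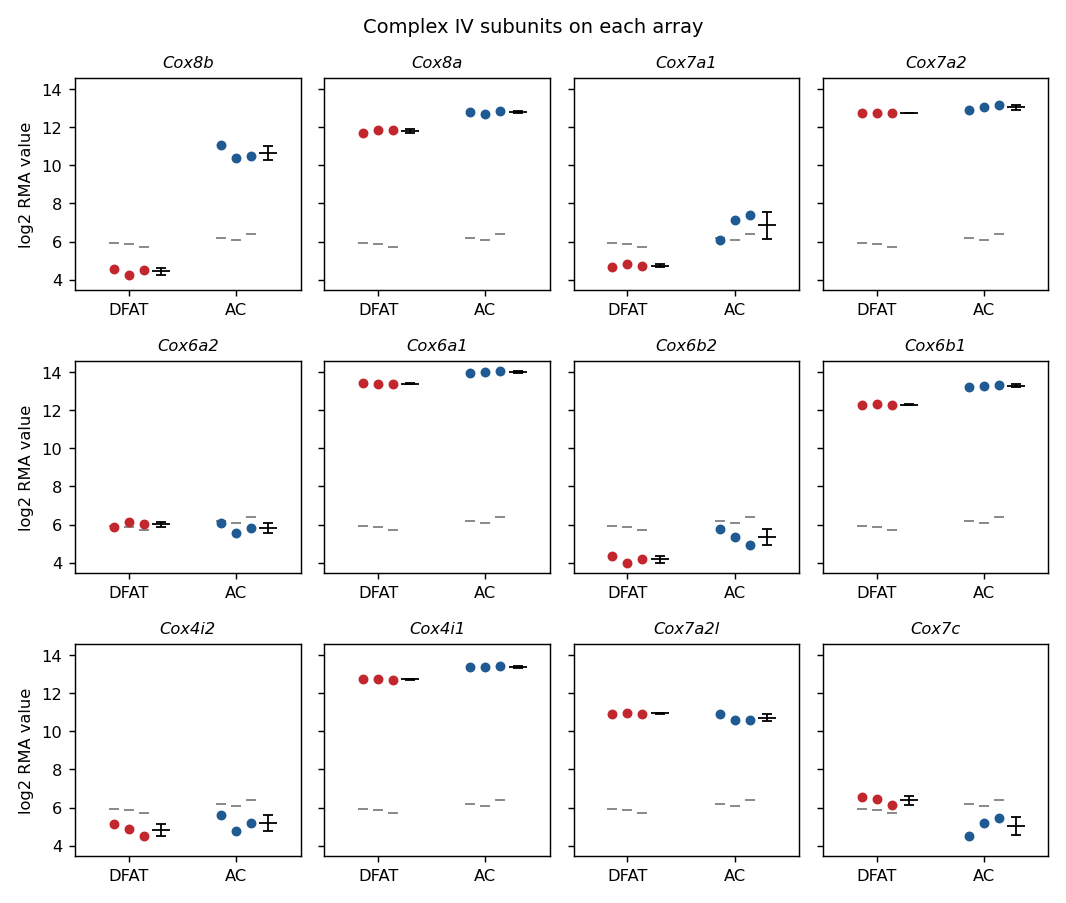
Log2 RMA values (vertical axis, shared) of 12 complex IV genes on each array, with DFAT at the left and AC at the right of each panel, points for arrays, bars for mean ± SD of 3 and grey dashes for the background level of each array. Cox8b and Cox7a1 lie under the dashes in DFAT, while Cox8a, Cox7a2, Cox6a1, Cox6b1 and Cox4i1 lie far above them in both groups.

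ATP synthase has a catalytic head, a ring in the membrane that turns, and a stalk. In the catalytic F1 head, the alpha subunit gene Atp5a1 had 11.80, 11.92 and 11.93 in DFAT cells, against 12.74, 12.65 and 12.64 in AC, and fell by 0.79 (adjusted p = 0.00132 from limma). Its 3 probe sets ran from -0.88 to -0.12, and 1 did not pass. Atp5b, of the catalytic beta subunit, had 13.15, 13.16 and 13.21 in DFAT cells and 13.37, 13.33 and 13.30 in AC, a difference of -0.16 (-0.44 to 0.11) that did not pass. Atp5d, of the delta subunit, was higher, with 12.75, 12.79 and 12.82 in DFAT cells against 12.43, 12.35 and 12.44 in AC (difference 0.38, adjusted p = 0.0370 from limma), but it was -0.19 with the reference genes. Without any 1 of the DFAT arrays, or without AC replicate 2 or 3, its adjusted p was 0.0535 to 0.130 from limma.

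The 3 genes of the c ring, Atp5g1, Atp5g2 and Atp5g3, encode the same mature protein behind different import sequences. Only Atp5g1 of the 3 passed the test. Atp5g1 had 10.88, 11.03 and 11.13 in DFAT cells, against 10.12, 10.38 and 10.41 in AC, a rise of 0.71 (0.38 to 1.05, adjusted p = 0.00534 from limma), which kept its sign in the 5 scalings tried but was 0.14 with the reference genes (adjusted p = 0.379 from limma). Atp5g2 had 12.03, 12.17 and 12.15 in DFAT cells and 11.92, 11.76 and 11.77 in AC, a difference of 0.30 that did not pass, passed without AC replicate 1 (0.35, adjusted p = 0.0385 from limma) and was -0.27 with the reference genes. Atp5g3 had 12.92, 13.01 and 13.05 in DFAT cells and 13.18, 13.41 and 13.32 in AC, a difference of -0.31 that did not pass, passed without AC replicate 1 and was 0.16 with the hybridization controls. The groups did not overlap in any of the 3 genes, with DFAT cells above AC in Atp5g1 and Atp5g2 and below AC in Atp5g3. Of all genes, 27.5% had every DFAT array above every AC array and 32.5% had every one below.

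In the stalk and the membrane part the genes fell or did not pass. Atp5k, of subunit e, which helps ATP synthase form dimers, had 11.42, 11.51 and 11.43 in DFAT cells, against 12.35, 12.44 and 12.57 in AC, and fell by 1.005 (adjusted p = 0.000441 from limma). Atp5h, of subunit d in the stalk, had 11.82, 11.86 and 11.89 in DFAT cells, against 12.74, 12.57 and 12.59 in AC, and fell by 0.78 (adjusted p = 0.00154 from limma). Of the 4 stalk genes 3 were lower, and of the 5 accessory genes in the membrane 3 were.

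**Figure D4:**
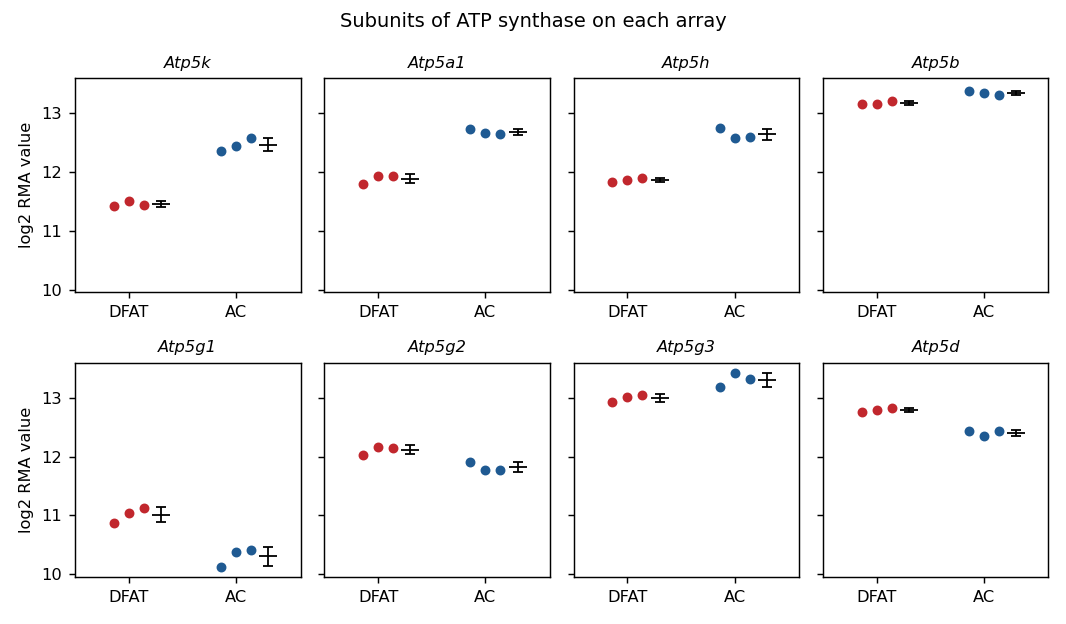
Log2 RMA values (vertical axis, shared) of 8 ATP synthase genes on each array, with DFAT at the left and AC at the right of each panel, points for arrays and bars for mean ± SD of 3. Atp5k, Atp5a1 and Atp5h lie lower in DFAT, while Atp5g1 and Atp5d lie higher, Atp5d with the opposite sign when arrays are centred on reference genes.

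Among the complex I assembly factors, the pair Ndufaf3 and Ndufaf4, which act together early in assembly, had differences of opposite sign. Ndufaf3 had 7.43, 7.62 and 7.62 in DFAT cells, against 9.35, 9.55 and 9.71 in AC, and fell by 1.98 (adjusted p = 2.08e-05 from limma). Ndufaf4 had 9.80, 9.74 and 9.75 in DFAT cells and 8.43, 9.42 and 9.40 in AC, a difference of 0.68 that did not pass, but was 0.36 and passed without AC replicate 1 (adjusted p = 0.0291 from limma). The other probe set of Ndufaf4 gave 1.21 and passed, and the mean of both was 0.95 (adjusted p = 0.0144 from limma). Ndufaf1, an early membrane arm factor, fell by 1.18, and Ndufaf8, the partner of Ndufaf5, by 0.60. Ndufaf2, a late chaperone, had 8.30, 8.04 and 7.86 in DFAT cells against 6.89, 7.28 and 7.66 in AC, a rise of 0.79 (adjusted p = 0.0219 from limma). Its call was lost without DFAT replicate 1 or 2 or without AC replicate 2 (adjusted p 0.0552 to 0.0899 from limma), and with the reference genes (0.21, adjusted p = 0.364 from limma).

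The motifs were then counted over all 79 windows of the 74 matched genes. NRF1 matched in 11.4% of them against 1.75% of all windows, ETS in 24.1% against 8.86%, YY1 in 12.7% against 2.75%, SP1 in 45.6% against 35.7% and ERR in 2.53% against 0.423%. The NRF1, ETS and SP1 motifs hold CG, and the median window here had 20 CG dinucleotides against 7 over all windows. The part of base composition in these shares was not tested. Examples with matches in capitals, from genes that fell, are Atp5k (chr5:108434400-108434549, minus strand), whose capitals join overlapping NRF1 matches on both strands, Uqcr11 (chr10:80406822-80406971, minus strand), with an ETS match, and Cox6a1 (chr5:115348959-115349108, minus strand), with SP1 and ETS matches. Each holds further matches in its window outside the stretch shown.
Atp5k: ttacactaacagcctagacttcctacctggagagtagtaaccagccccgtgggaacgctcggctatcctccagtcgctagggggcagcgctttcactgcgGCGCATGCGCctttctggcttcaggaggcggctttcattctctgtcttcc
Uqcr11: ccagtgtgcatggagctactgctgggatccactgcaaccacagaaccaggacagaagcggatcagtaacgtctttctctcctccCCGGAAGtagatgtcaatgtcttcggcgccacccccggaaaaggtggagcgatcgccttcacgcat
Cox6a1: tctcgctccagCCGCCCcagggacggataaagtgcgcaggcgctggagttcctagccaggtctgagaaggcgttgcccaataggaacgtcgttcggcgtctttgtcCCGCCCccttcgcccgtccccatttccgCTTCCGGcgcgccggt
By gene, ETS matches were found in 4 of 32 genes of complex I, 2 of 3 of complex II, 2 of 5 of complex III, 3 of 12 of complex IV and 6 of 15 of complex V. YY1 matches were found in 6 of the 32 complex I genes, in 3 of the 15 of complex V, in 1 of the 7 assembly factors and in 0 of complexes II, III and IV. Of all 27025 genes with a window, 9.93% held an ETS match and 3.19% a YY1 match. These shares describe letters in the genome, and no binding was measured.

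Genes that serve the chain without being in the set were counted from lists of known function, to be read against the 23.8% of all genes that were lower and the 22.6% that were higher. Carriers and cytochrome c1 had 6 lower and 0 higher of 8 by limma, with 0 higher also at an unadjusted p under 0.05 and in the 5 scalings tried. Etfdh, which hands electrons from fatty acid oxidation to coenzyme Q, had 8.50, 8.40 and 8.33 in DFAT cells, against 10.46, 10.59 and 10.54 in AC, and fell by 2.12 (adjusted p = 6.44e-06 from limma). Its donor subunit Etfa fell by 1.49, and Sqor, which oxidizes sulfide, by 1.42. Of 12 genes of coenzyme Q synthesis 8 were lower and 0 higher by limma (1 higher without AC replicate 3, with array medians or with the hybridization controls), and Coq9 fell by 2.44, with Coq8a at background level in DFAT cells, at least 7.99-fold lower.

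Assembly and related factors outside the naming rule had 17 lower and 8 higher of 39, and without any 1 DFAT array 2 or 3 were higher. The 8 include Atpif1, which is an inhibitor and not an assembly factor. Foxred1, of complex I assembly, fell by 2.11 and Pet100, of complex IV assembly, fell by 1.56. Atpif1, the inhibitor that stops ATP synthase from running backwards, had 11.48, 11.40 and 11.53 in DFAT cells, against 9.72, 9.995 and 10.04 in AC, a rise of 1.55 (adjusted p = 6.44e-05 from limma).

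Regulators of mitochondrial biogenesis had 3 lower and 8 higher of 20, that is 15.0% and 40.0%, where all genes had 23.8% and 22.6% and genes above background level on all 6 arrays 24.2% and 34.7%. With the reference genes 10 were lower and 3 higher. Without AC replicate 1, 5 were lower, and without DFAT replicate 3, 5 were higher. Pprc1, a coactivator of the PGC-1 family, had 9.31, 9.43 and 9.63 in DFAT cells, against 7.18, 7.57 and 7.70 in AC, a rise of 1.97 (adjusted p = 5.95e-05 from limma). Ppargc1b, of the same family, fell by 1.53, and Ppargc1a lay at background level throughout, at 3.09 in DFAT cells and 5.91 in AC. Nrf1, whose product binds the NRF1 motif, had 6.94, 7.04 and 7.03 in DFAT cells and was at background level in AC at 5.71, 5.55 and 5.59, a bound of at least 1.72-fold higher. Gabpa, of the ETS factor GABP, rose by 0.83, a call lost with the reference genes (0.26, adjusted p = 0.164 from limma), and Tfam, which packages mitochondrial DNA, by 1.37.

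The import machinery and carriers had 2 lower and 9 higher of 20, where 45.0% higher compares with the 34.7% of genes above background level on all 6 arrays, as all 20 were. With the reference genes 5 were lower and 1 higher. Without DFAT replicate 2, 5 were higher, and without any 1 DFAT array 1 was lower. Tomm22, an import receptor, rose by 1.05 and Pmpcb, of the peptidase that trims imported proteins, fell by 0.95. Genes for cristae and cardiolipin had 5 lower and 2 higher of 14, that is 35.7% and 14.3% beside 24.2% and 34.7% of those genes, 9 and 2 without AC replicate 1, and 1 was higher without DFAT replicate 2 or 3. Chchd6 of the cristae junctions fell by 1.41, and Tamm41 of cardiolipin synthesis rose by 0.92, a call lost with the reference genes (0.35, adjusted p = 0.0842 from limma).

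How the arrays are scaled set how many genes passed. Arrays centred on their medians gave 49 lower and 6 higher of the 90 genes, centring on 11 reference genes gave 79 and 1, and centring on 18 hybridization control probe sets gave 12 and 7. Over all probe sets, 52.9% of the calls were higher as deposited, 63.0%, 15.1% and 78.5% with these centrings. The median of all genes was -0.10 as deposited, 0.028 with array medians, -0.68 with reference genes, of which 7 of 11 were higher in DFAT cells and 1 lower as deposited, and 0.36 with hybridization controls. Of the 57 genes lower as deposited, 49, 57 and 12 were still lower with these centrings. Relative to the median of all genes, that of the 90 genes stood at -0.48 as deposited, and a centring, which adds the same amount to all genes of an array, cannot change that gap. It was -0.54 when quantile normalization was run again, -0.76 without dim probe sets and -0.21 with values raised to the background level. With values so raised, the median of the 90 genes was -0.58 and that of all genes -0.37. The latter is the difference between the levels themselves, as for Cox7b2, which was raised on every array.

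**Figure D5:**
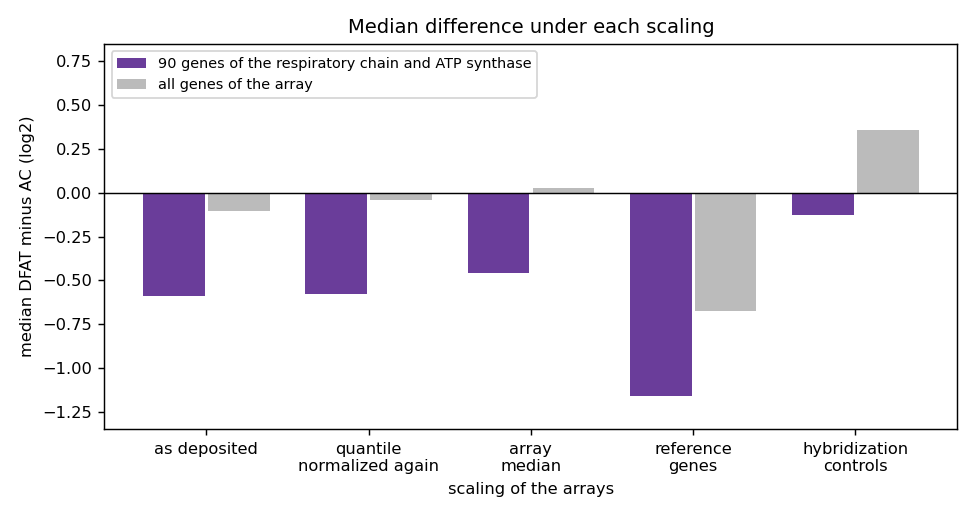
Median difference DFAT minus AC on the log2 scale (vertical axis) of the 90 genes and of all genes of the array (paired bars) under 5 scalings of the arrays (horizontal axis). The bars lie at -0.59 for the 90 genes and -0.10 for all genes as deposited, and at -0.12 and 0.36 with the hybridization controls, and the 3 centrings move both bars by the same amount by construction.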

How the data were processed

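RNA of 3 DFAT and 3 AC arrays was analysed. Per the labels and methods, the authors extracted total RNA with TRIzol, hybridized it to the Affymetrix Mouse Genome array and deposited log2 values after robust multi-array averaging (RMA). The sources used here do not state the set of arrays that was normalized jointly, and arrays record no depth, so their number limits the precision. No columns of fold changes or p-values made by the authors were used.

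Of 45101 probe sets, 64 controls were left out. Of the remaining 45037, 34945 had 1 gene symbol, 932 several and 9160 none, and 10 with several symbols, 1 of which fitted, were not taken. All 90 genes were found in RefSeq by their Entrez ID. DFAT and AC were compared with limma 3.58.1 in R 4.3.3 (lmFit and eBayes, two-sided), with Benjamini-Hochberg adjustment over the 45037 probe sets and a threshold of 0.05. With 3 arrays a group, the smallest exact permutation p is 0.1. A gene was its probe set of highest mean. Where a group was at background level, the bound set the mean of the other group against the higher of that level and the dim value on each array.

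The genes and lists were chosen with earlier results of these data known. Named genes were, per complex and for the assembly factors, the 3 largest significant increases and decreases without overlap, all subunit isoforms, complex II and the 3 largest changes of each list, and others were named after their values were seen. Promoters came from a RefSeq table on GRCm38.p6. Python 3.11.15, pandas 2.3.3, numpy 2.4.6 and matplotlib 3.10.9 were used, and the fit was tested on simulated data. Alternatives were other scalings, filters, variances, array weights, the replicate block, each array left out, other gene summaries and a 4-fold rule.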

Additional observations from a re-analysis of the deposited data

How the results depend on the processing

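Of the counts and medians of the 90 genes, those that moved did so mainly with the scaling, whose cause was not tested. Centred on the reference genes, the median was -1.16, 153 probe sets were lower and 4 higher, 1 gene was higher, and 14 genes of complex V and 5 assembly factors were lower. Centred on the hybridization controls, the median was -0.12, 12 genes were lower and 7 higher, 14 probe sets were lower and 15 higher, and 4, 2, 2, 3 and 0 genes of complexes I to V and 1 assembly factor were lower. Centred on the array medians, 14 probe sets were higher. Without probe sets that may match several transcripts, fewer were tested, with 45 probe sets lower and 5 higher, 2 genes higher and 4 of complex III lower. As the mean of its probe sets 7 genes were higher. A fall or rise of at least 4-fold was met by 3 probe sets or 3 genes lower (1 of complex I and 2 of complex IV, with 0 of complexes II, III and V and of the assembly factors) and by 0 higher. Over the whole array, 1210 of 18193 genes were called lower with a fall of that size. Leaving out 1 array at a time gave 46 to 66 genes lower, 2 to 7 genes higher, 76 to 117 probe sets lower and 6 to 15 higher, the high ends without AC replicate 1.

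With the reference genes the sign turned for 9 of the 90 genes, among them Atp5d (-0.19), Atp5g2 (-0.27), Cox5a (-0.31), Cox6a2 (-0.40), Cox7a2l (-0.34) and Cox7b2 (-0.54). The hybridization controls moved all genes up, by 0.46 for the median of the set, which turned the sign of 25 of the 90 genes, 5 of them called lower as deposited (Ndufa4, Atp5c1, Cox6c, Ndufb11 and Ndufc2). Among the genes named in the text it turned for Atp5b (0.30), Ndufa12 (0.42, and 0.089 and 0.031 with array medians and renewed quantile normalization), Ndufs7 (0.27), Ndufs8 (0.34, and 0.0070 with array medians), Ndufv2 (0.13), Uqcrc1 (0.24), Atp5g3 (0.16), Cox4i2 (0.089), Cox7a2 (0.16), Cox8c (0.23), Ndufa4 (0.059) and the muscle marker Tnnt3 (0.070), and for the medians of complex IV (0.051), complex V (0.026) and the assembly factors (0.37, and 0.038 with array medians). With values raised to the background level, which differs between arrays, it turned for Cox6a2 (-0.20) and Cox7b2 (-0.37), and Cox7b2, at background level, ran between -0.10 without DFAT replicate 2 and 0.13 without DFAT replicate 1 (-0.085 without AC replicate 3). The median of the assembly factors ran between -0.23 without AC replicate 1 and 0.041 without AC replicate 3. Of the 39 genes that the naming rule gave, 36 or 37 kept direction and side of the threshold with array medians, renewed quantile normalization, array weights, other variances or the replicate block, 27 with the reference genes (6 reversed, 4 gained and 2 lost) and 18 with the hybridization controls (5 reversed, 2 gained and 14 lost).

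Replicate numbers were shared by both groups, and deviations of same-numbered arrays correlated at -0.016, -0.027 and 0.013. Such values cannot show whether same-numbered arrays share an animal or a preparation, which no source states. With the replicate block, 52 genes were lower and 3 higher, with 87 probe sets lower and 8 higher. Protein identity of the isoform pairs was not run. Cox8b, Cox7a1, Cox6b2, Cox6a2, Cox4i2, Cox7b2, Ndufb4 and Cox7c are limited by signal at background level in 1 or both groups.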
